A study of Mus musculus with 3 samples.

Results

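The 10 genes described here are 6 inhibitory receptors of T and NK cells (Pdcd1, Lag3, Havcr2, Tigit, Ctla4 and Cd160), the ectoenzyme gene Entpd1, and 3 genes that mark regulatory T cells (Foxp3, Ikzf2 and Il2ra). They were taken by name from the 31054 features of the deposited matrices, with earlier results of these data known. Each was followed in 6 classes of lung lymphocytes set by single transcripts, counted as UMIs (unique molecular identifiers, 1 per captured RNA molecule). Cd4 T cells had at least 1 Cd4 UMI and 2 UMIs of Cd3d, Cd3e and Cd3g together. Cd8 T and Icos T cells had the same with Cd8b1 or Icos in place of Cd4. γδ T cells had Trdc with Cd3e, NK cells had Ncr1 without Cd3d, Cd3e or Cd3g, and Xcl1 T cells had at least 2 Xcl1 UMIs with Cd3e.

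Inhibitory receptors restrain lymphocytes that have been activated. PD-1, encoded by Pdcd1, recruits phosphatases to the activated cell, CTLA-4 takes the ligands that the costimulatory receptor CD28 needs, and LAG-3 binds MHC class II. Regulatory T cells are Cd4 T cells that hold back other lymphocytes, with FOXP3 as their lineage factor, Helios (Ikzf2) as another transcription factor of many of them, and CD25 (Il2ra) as the receptor chain that lets them bind interleukin 2 at low concentration. Activated T cells outside this lineage also carry CD25 and several of the receptors.

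Mouse lungs were profiled by 10x 3′ single-cell RNA sequencing in 3 libraries, 1 per group: irradiated conditional knockout mice given a drug (cKO-drug), irradiated wild-type mice (irradiated WT), and wild-type mice without irradiation (non-irradiated WT). The sources used here do not give the gene knocked out, the Cre driver, the drug, the radiation dose, the time after it, the strain, the age or the number of mice per library. The label of the knockout library could therefore not be checked on its target, and knockout and drug cannot be told apart. Since each group is 1 library, animal-to-animal spread is unknown and no difference was tested. Brackets hold 95% intervals, exact Poisson for levels and exact binomial (Clopper-Pearson) for shares of cells, and these cover counting error only.

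The deposited matrices hold 76667310 UMIs in cKO-drug, 45800421 in irradiated WT and 85984536 in non-irradiated WT. After the limits of at least 250 genes and at most 15% mitochondrial UMIs, the number of cells kept was 9886 in cKO-drug, 5805 in irradiated WT and 13091 in non-irradiated WT, with medians of 6070 UMIs in cKO-drug, 5706 in irradiated WT and 4899 in non-irradiated WT. The libraries shared 25 deposited barcodes between cKO-drug and irradiated WT, 46 between cKO-drug and non-irradiated WT, and 28 between both WT libraries. The irradiated WT library stands apart in that 1595 of its kept cells (27.5%) were of male type, with UMIs of Ddx3y, Eif2s3y, Kdm5d or Uty and none of Xist. The cKO-drug library had 27 such cells and the non-irradiated WT library 1. Male-type cells made up 21.2 to 39.7% of the 6 classes in the irradiated WT library, so results are also given for female-type cells, with Xist and none of the 4 Y-linked genes.

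The Cd4 T class held 647 cells in cKO-drug, 519 in irradiated WT and 246 in non-irradiated WT, the Cd8 T class 1115 in cKO-drug, 425 in irradiated WT and 485 in non-irradiated WT, and the Icos T class 3495 in cKO-drug, 1953 in irradiated WT and 1148 in non-irradiated WT. There were 1263 γδ T cells in cKO-drug, 653 in irradiated WT and 308 in non-irradiated WT. NK cells numbered 463 in cKO-drug, 339 in irradiated WT and 318 in non-irradiated WT, and Xcl1 T cells 802 in cKO-drug, 400 in irradiated WT and 107 in non-irradiated WT. Transcripts that the gates did not use were checked against the names. Cd8a was found in 45.4% of the Cd8 T class in cKO-drug, 48.0% in irradiated WT and 29.9% in non-irradiated WT, against 1.08% of the Cd4 T class in cKO-drug, 1.35% in irradiated WT and 0.407% in non-irradiated WT. Tcrg-C1 was found in 39.7% of the γδ T class in cKO-drug, 43.9% in irradiated WT and 41.9% in non-irradiated WT and Prf1 in 92.9% of the NK class in cKO-drug, 88.8% in irradiated WT and 91.5% in non-irradiated WT. The gates overlap, so the classes are not independent: the Icos gate held 78.0% of the Cd4 T cells in cKO-drug, 81.1% in irradiated WT and 75.6% in non-irradiated WT. NK cells could meet no other gate, since theirs excludes the Cd3 transcripts that the others require.

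Summed markers of other lineages differed between the libraries within the classes. For Cd4 T cells, in CPM (counts-per-million, over all UMIs of the class), the 3 epithelial markers Sftpc, Sftpa1 and Scgb1a1 summed to 824 in cKO-drug, 261 in irradiated WT and 3222 in non-irradiated WT. The 4 myeloid markers summed to 130 CPM in cKO-drug, 42.4 in irradiated WT and 203 in non-irradiated WT, and the 3 endothelial markers to 64.8 CPM in cKO-drug, 47.4 in irradiated WT and 236 in non-irradiated WT. The 3 mesenchymal markers were lowest in irradiated WT too, and the 3 B cell markers stayed between 15.3 and 25.04 CPM. The 3 markers of group 2 innate lymphoid cells, Gata3, Il1rl1 and Rora, which T cells also express, summed to 1143 CPM in cKO-drug, 2011 in irradiated WT and 1033 in non-irradiated WT. None of these markers was at 0 in Cd4 T cells. The part of the epithelial and innate lymphoid markers in the values below was not tested, while for the B cell, myeloid, mesenchymal and endothelial markers the calls were recounted without the cells that had at least 3 of their UMIs.

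A gene was counted as apart between libraries when the ratio of its CPM values, each with 5 added, reached 2 in either direction and at least 30 UMIs stood behind the higher value. The 10 genes in 6 classes give 60 values per pair of libraries. At least 30 UMIs in 1 or both libraries stood behind 54 of them for cKO-drug against irradiated WT. The number was 49 for irradiated WT against non-irradiated WT and 54 for cKO-drug against non-irradiated WT. The rest could not be called. Shares of all values or all genes, here and below, are over those with that many UMIs. In cKO-drug against irradiated WT, 0 were higher and 7 lower, where the same rule called 1.07% of all gene-by-class values higher and 0.415% lower. In irradiated WT against non-irradiated WT, 19 were higher and 0 lower, beside 1.51% and 5.37% of all values. In cKO-drug against non-irradiated WT, 10 were higher and 0 lower, beside 0.562% and 3.59%. The median log2 ratio of the 60 values was -0.25 for cKO-drug over irradiated WT, 0.68 for irradiated WT over non-irradiated WT and 0.34 for cKO-drug over non-irradiated WT. Over all values tested the medians were -0.06, 0.10 and 0.01 for the same pairs. Without the cells with B cell, myeloid, mesenchymal or endothelial markers, 6 of the 7 calls were still made, all but Il2ra in Cd8 T cells, and 19 of the 19 and 10 of the 10 in the other pairs. The 3 pairs share libraries, so their values are given side by side and do not support one another.

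**Figure D1:**
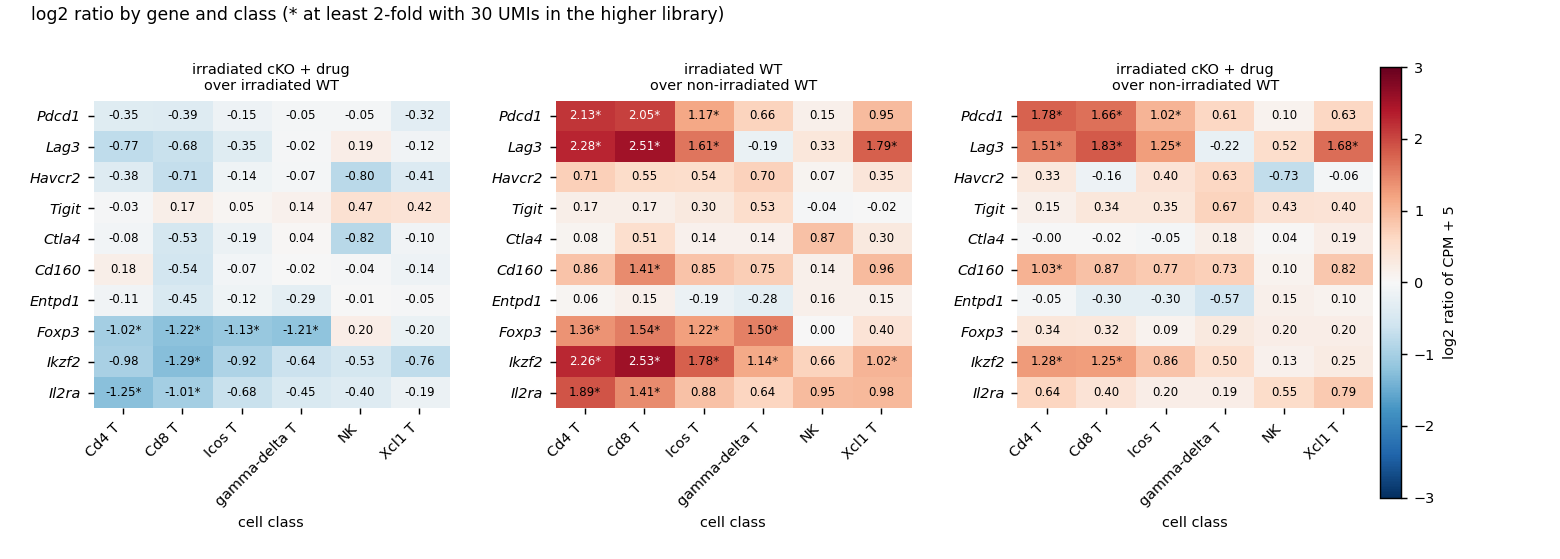
log2 ratio of CPM with 5 CPM added for each of the 10 genes (rows) in each of the 6 cell classes (columns), in 3 panels for the 3 pairs of libraries, with red for higher and blue for lower in the library named first. Stars mark the values counted as apart: 7 lower in cKO-drug than in irradiated WT, 19 higher in irradiated WT than in non-irradiated WT and 10 higher in cKO-drug than in non-irradiated WT.

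The 7 values lower in cKO-drug than in irradiated WT were those of Foxp3 in 4 classes, Il2ra in 2 and Ikzf2 in 1, and no inhibitory receptor was among them. They fell on 2 genes in Cd4 T, 3 in Cd8 T, 1 in Icos T, 1 in γδ T and 0 in NK and Xcl1 T cells, where 0.635, 0.275, 0.161, 0.458, 0.721 and 0.407% of all genes were called lower. The 19 values higher in irradiated WT than in non-irradiated WT fell on 5 genes in Cd4 T, 6 in Cd8 T, 4 in Icos T, 2 in γδ T, 0 in NK and 2 in Xcl1 T cells. For those classes the rule called 2.06, 2.38, 0.583, 0.862, 1.05 and 2.36% of all genes higher. The 10 values higher in cKO-drug than in non-irradiated WT belonged to Pdcd1 (3 classes), Lag3 (4), Ikzf2 (2) and Cd160 (1), and none to Foxp3 or Il2ra. They fell on 4 genes in Cd4 T, 3 in Cd8 T, 2 in Icos T, 0 in γδ T, 0 in NK and 1 in Xcl1 T cells, beside 0.606, 0.452, 0.268, 0.361, 0.637 and 1.18% of all genes. In NK cells 6 of the 10 genes had enough UMIs for a call in each pair with cKO-drug, and 4 in the pair of WT libraries.

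**Figure D2:**
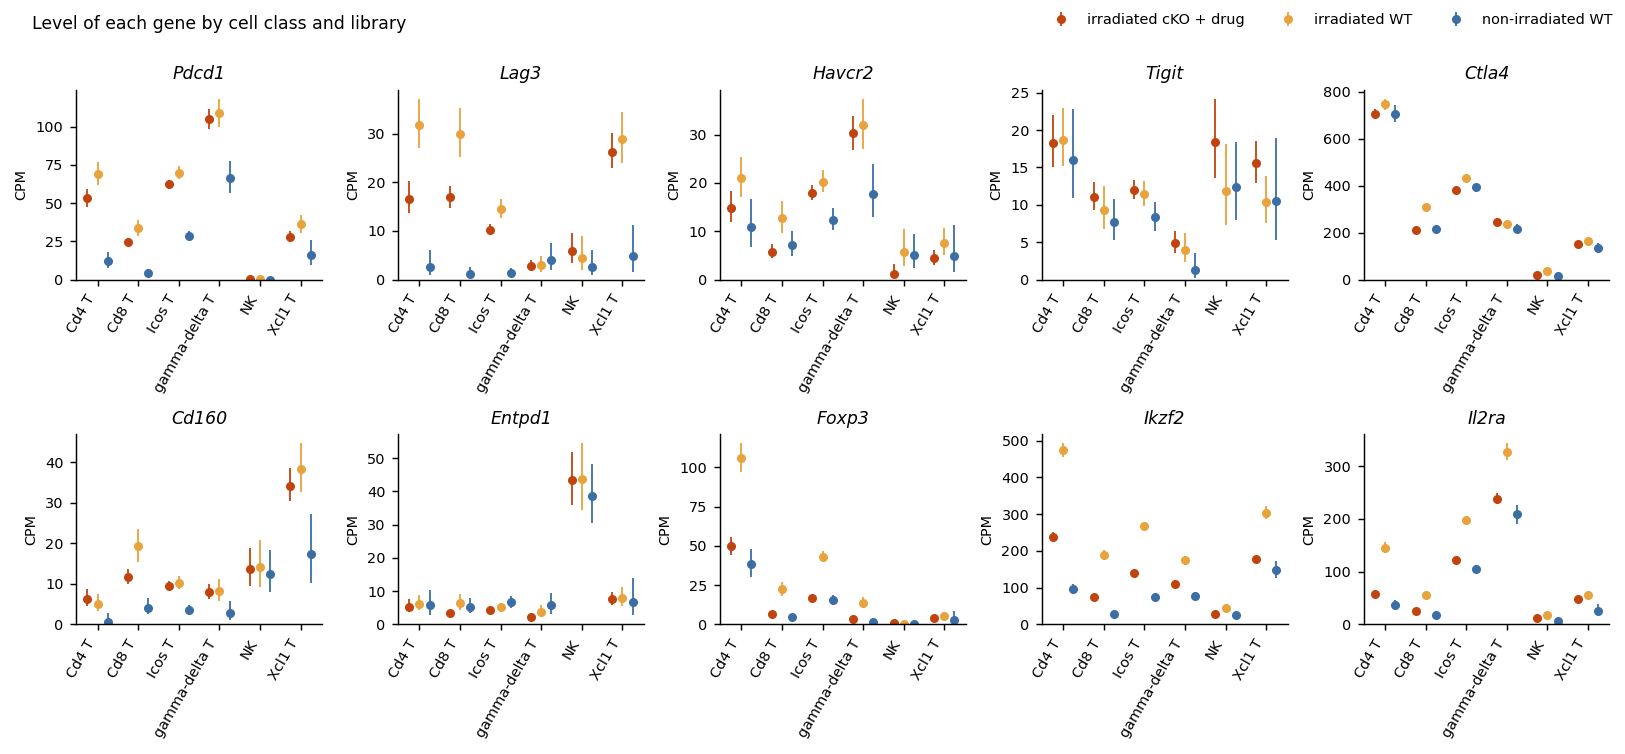
Level (CPM, linear axis from 0) of each gene in the 6 classes, with 1 point per library and 95% Poisson intervals. For Foxp3, Ikzf2 and Il2ra the irradiated WT point stands above the cKO-drug point in Cd4 T, Cd8 T, Icos T and γδ T cells; for Pdcd1 and Lag3 both irradiated points stand above the non-irradiated WT point in Cd4 T and Cd8 T cells.

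The sequences just upstream of annotated starts are shown for 3 genes with different courses in Cd4 T cells. Pdcd1 was higher in both irradiated libraries than in non-irradiated WT, Foxp3 was higher in irradiated WT than in both others, and Ctla4 was near the same level in all 3. They are 250-base windows from RefSeq on GRCm38.p6, written 5′ to 3′ on the strand of the gene and ending at the base before the start. The window of Pdcd1 is chr1:94052554-94052803 (minus strand), that of 1 of the annotated starts of Foxp3 chrX:7579426-7579675 (plus strand) and that of Ctla4 chr1:60908775-60909024 (plus strand). Capitals mark a match to 1 of 4 motifs searched on both strands.
Pdcd1: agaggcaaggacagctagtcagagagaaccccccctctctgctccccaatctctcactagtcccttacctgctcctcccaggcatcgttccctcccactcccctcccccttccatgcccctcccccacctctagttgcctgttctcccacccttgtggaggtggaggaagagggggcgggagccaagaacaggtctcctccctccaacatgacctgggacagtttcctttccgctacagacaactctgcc
Foxp3: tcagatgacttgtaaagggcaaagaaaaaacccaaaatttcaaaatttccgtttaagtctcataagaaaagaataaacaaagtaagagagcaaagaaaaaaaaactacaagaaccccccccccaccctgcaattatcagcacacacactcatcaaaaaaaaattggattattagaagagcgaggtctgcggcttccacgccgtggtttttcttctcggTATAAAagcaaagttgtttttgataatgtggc
Ctla4: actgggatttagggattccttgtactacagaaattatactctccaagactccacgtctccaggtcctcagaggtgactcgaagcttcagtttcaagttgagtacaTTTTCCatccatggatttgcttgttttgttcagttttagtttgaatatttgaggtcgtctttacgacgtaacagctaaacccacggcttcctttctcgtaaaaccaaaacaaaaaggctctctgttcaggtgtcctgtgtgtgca
The motifs were the NFAT core GGAAAA, the AP-1 site TGANTCA, the forkhead core TGTTTAC and the TATA box TATAAA. The Foxp3 window shown held the TATA box 32 bases before the start, and 12.4% of 32851 windows of this length hold it. The window of another annotated Foxp3 start, chrX:7580233-7580482, is not shown. It held no TATA box but the NFAT core, 141 bases before that start. The Ctla4 window held the NFAT core on the opposite strand, read as TTTTCC, 145 bases before the start, and 20.4% of windows hold it. The Pdcd1 window held none of the 4. The AP-1 site and the forkhead core stand in 6.75% and 3.17% of windows. No window shown held more than 1 match, so none overlapped. Windows were found for 8 of the 10 genes, all but Lag3 and Ikzf2.

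Pdcd1, which encodes PD-1 (chr1:94038305-94052553, minus strand, GRCm38), was higher in both irradiated libraries than in non-irradiated WT in Cd4 T, Cd8 T and Icos T cells. Its level in Cd4 T cells was 53.0 CPM [47.4 to 59.1] in cKO-drug, 69.2 CPM [62.1 to 76.8] in irradiated WT and 11.9 CPM [7.54 to 17.8] in non-irradiated WT. The non-irradiated interval lies below both others. The ratio was 0.766 [0.657 to 0.894] for cKO-drug over irradiated WT, 5.82 [3.81 to 9.30] for irradiated WT over non-irradiated WT and 4.46 [2.92 to 7.13] for cKO-drug over non-irradiated WT. A Pdcd1 UMI was seen in 22.1% of Cd4 T cells in cKO-drug, 28.3% in irradiated WT and 6.504% in non-irradiated WT. After each cell was thinned to 1000 UMIs, which removes differences in depth between cells and left out no Cd4 T cell, the shares were 4.48% in cKO-drug, 5.01% in irradiated WT and 1.22% in non-irradiated WT. Both kinds of share are low in non-irradiated WT alone.

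Cd8 T cells held 24.5 CPM of Pdcd1 in cKO-drug, 33.6 in irradiated WT and 4.32 in non-irradiated WT, again low in non-irradiated WT. The ratios over non-irradiated WT were 5.68 [3.58 to 9.57] for cKO-drug and 7.78 [4.82 to 13.3] for irradiated WT. The Cd8 T cells that met no other gate (359 in cKO-drug, 135 in irradiated WT and 232 in non-irradiated WT) held less Pdcd1, at 8.55 CPM in cKO-drug, 4.33 in irradiated WT and 2.57 in non-irradiated WT, from 30 UMIs in cKO-drug and 5 in each WT library. In them neither irradiated library was apart from non-irradiated WT for Pdcd1, Lag3, Cd160 or Il2ra. A call needs 30 UMIs in the higher library, so the 5 Pdcd1 UMIs of irradiated WT could not give one. In a subset this small a missing call does not show equal levels. Ikzf2, at 31.9 CPM in cKO-drug, 73.5 in irradiated WT and 14.4 in non-irradiated WT, was the 1 gene called there, in both pairs that hold irradiated WT. Across classes Pdcd1 was highest in γδ T cells, at 105 CPM in cKO-drug, 109 in irradiated WT and 66.7 in non-irradiated WT. There 37.2% of cells in cKO-drug, 37.1% in irradiated WT and 29.9% in non-irradiated WT carried it, and no pair of libraries was apart. Icos T cells followed in all 3 libraries, at 62.3 CPM in cKO-drug, 69.8 in irradiated WT and 28.3 in non-irradiated WT, where with female-type cells alone neither irradiated library was apart from non-irradiated WT. The order below these was Cd4 T, Xcl1 T, Cd8 T in both irradiated libraries, and the intervals of Xcl1 T and Cd8 T cells overlapped. NK cells had 1 Pdcd1 UMIs in cKO-drug, 1 in irradiated WT and 0 in non-irradiated WT. B cells, which serve as background with medians of 5903 UMIs in cKO-drug, 4908 in irradiated WT and 4686 in non-irradiated WT beside 7652 UMIs in cKO-drug, 7271 in irradiated WT and 6661 in non-irradiated WT in Cd4 T cells, carried Pdcd1 in 0.457% of cKO-drug cells. None of 537 irradiated WT and none of 1333 non-irradiated WT B cells did. Where 0 cells were seen, 3 cells were taken as the limit in place of an exact interval, which allows shares of up to 0.559% and 0.225%.

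Lag3, the gene of the MHC class II receptor LAG-3 (chr6:124904361-124911705, minus strand), was scarce without irradiation. Cd4 T cells held 16.6 CPM [13.6 to 20.2] in cKO-drug, 31.9 CPM [27.1 to 37.2] in irradiated WT and 2.58 CPM [0.839 to 6.03], from 5 UMIs, in non-irradiated WT. The 3 intervals do not overlap. The ratio of 0.522 [0.403 to 0.673] for cKO-drug over irradiated WT gave a log2 ratio of -0.77 with 5 CPM added, short of the rule. Irradiated WT over non-irradiated WT gave a ratio of 12.3 [5.18 to 38.5] and cKO-drug over non-irradiated WT 6.44 [2.67 to 20.3], both apart.

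The order of the libraries for Lag3 was the same in Cd8 T cells, at 16.9 CPM in cKO-drug, 30 in irradiated WT and 1.14 in non-irradiated WT, and in Icos T cells, at 10.3 CPM in cKO-drug, 14.5 in irradiated WT and 1.40 in non-irradiated WT. Xcl1 T cells held 26.3 CPM in cKO-drug, 28.9 in irradiated WT and 4.80 in non-irradiated WT, the last from 5 UMIs. Both irradiated libraries were apart from non-irradiated WT in these 3 classes. The Cd8 T value of non-irradiated WT rests on 5 UMIs in 4 cells, and the 5 UMIs of its Xcl1 T cells lay in 2 cells. In γδ T cells Lag3 lay between 2.79 and 4.04 CPM in the 3 libraries and in NK cells between 2.57 and 5.88 CPM. The most UMIs, in cKO-drug, were 27 in γδ T and 16 in NK cells. A call needs 30, so no value could be apart in these 2 classes.

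Lag3 was also found outside lymphocytes. Mesenchymal cells, with medians of 8020 UMIs in cKO-drug, 8367 in irradiated WT and 7667 in non-irradiated WT, carried it in 4.43% of cells in cKO-drug, 4.84% in irradiated WT and 5.72% in non-irradiated WT. B cells carried it in 0.457% in cKO-drug, 0.372% in irradiated WT and 0.750% in non-irradiated WT. The share among Cd4 T cells was 7.42% [5.52 to 9.72] in cKO-drug, 14.3% [11.4 to 17.6] in irradiated WT and 1.63% [0.445 to 4.11] in non-irradiated WT. The non-irradiated Cd4 T share lies below the mesenchymal share and its interval holds the B cell share, so it cannot be set apart from background at this depth. Of all Lag3 UMIs in kept cells, 75.7% in cKO-drug, 75.9% in irradiated WT and 7.78% in non-irradiated WT lay in the 6 classes.

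Ctla4, the gene of the receptor that competes with CD28 for its ligands (chr1:60887000-60915832, plus strand), hardly differed between libraries in Cd4 T cells. Its level was 706 CPM [686 to 728] in cKO-drug, 748 CPM [724 to 772] in irradiated WT and 707 CPM [670 to 745] in non-irradiated WT. All 3 intervals overlap. The ratio was 0.945 [0.904 to 0.987] for cKO-drug over irradiated WT, 1.06 [0.994 to 1.13] for irradiated WT over non-irradiated WT and 0.9995 [0.940 to 1.06] for cKO-drug over non-irradiated WT. A Ctla4 UMI was carried by 72.2% of Cd4 T cells in cKO-drug, 78.4% in irradiated WT and 71.5% in non-irradiated WT, against 3.96% of B cells in cKO-drug, 3.17% in irradiated WT and 2.03% in non-irradiated WT. Cd4 T cells were the highest class in each library, followed by Icos T cells, and NK cells the lowest, while γδ T and Cd8 T cells changed places between libraries.

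Icos T cells held 380 CPM of Ctla4 in cKO-drug, 433 in irradiated WT and 394 in non-irradiated WT and γδ T cells 246 CPM in cKO-drug, 238 in irradiated WT and 216 in non-irradiated WT. Cd8 T cells held 211 CPM in cKO-drug, 307 in irradiated WT and 215 in non-irradiated WT. Irradiated WT was the highest in Cd8 T cells, where Ctla4 was 1.43 times [1.32 to 1.56] its non-irradiated WT level, under the rule. NK cells held 17.6 CPM in cKO-drug, 35.1 in irradiated WT and 17.0 in non-irradiated WT, also without a call. Among female-type NK cells alone Ctla4 was counted as lower in cKO-drug than in irradiated WT and as higher in irradiated WT than in non-irradiated WT.

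Havcr2, which encodes TIM-3 (chr11:46454935-46481255, plus strand), and Tigit, a receptor for the poliovirus receptor CD155 (chr16:43648867-43664146, minus strand), had no value apart in any class or pair. Havcr2 in Cd4 T cells was at 14.9 CPM in cKO-drug, 20.9 in irradiated WT and 10.9 in non-irradiated WT, with a ratio of 1.93 [1.20 to 3.24] for irradiated WT over non-irradiated WT. It was highest in γδ T cells among the 6 classes, at 30.3 CPM in cKO-drug, 31.9 in irradiated WT and 17.8 in non-irradiated WT. Myeloid cells held 45.5 CPM in cKO-drug, 35.4 in irradiated WT and 35.7 in non-irradiated WT, more than any of the 6 classes. Tigit was level in Cd4 T cells, at 18.3 CPM in cKO-drug, 18.7 in irradiated WT and 16.0 in non-irradiated WT, and in NK cells it was at 18.4 CPM in cKO-drug, 11.9 in irradiated WT and 12.3 in non-irradiated WT. Its lowest class was γδ T, at 4.85 CPM in cKO-drug, 3.97 in irradiated WT and 1.21 in non-irradiated WT.

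Cd160, a receptor of NK cells and cytotoxic T cells that binds HVEM (chr3:96798763-96829351, minus strand), was highest in Xcl1 T cells. They held 34.3 CPM [30.4 to 38.5] in cKO-drug, 38.3 CPM [32.7 to 44.7] in irradiated WT and 17.3 CPM [10.2 to 27.3] in non-irradiated WT. Both irradiated intervals lie above the non-irradiated one, yet the log2 ratios over non-irradiated WT, 0.82 for cKO-drug and 0.96 for irradiated WT, fall short of the rule. Cd8 T cells held 11.6 CPM in cKO-drug, 19.2 in irradiated WT and 4.09 in non-irradiated WT, and irradiated WT was apart from non-irradiated WT with a ratio of 4.70 [2.81 to 8.28]. Cd4 T cells had 39 UMIs of Cd160 in cKO-drug, 25 in irradiated WT and 1 in non-irradiated WT, and the ratio of cKO-drug over non-irradiated WT, 12.2, had an interval from 2.06 to 494. NK cells were level, at 13.6 CPM in cKO-drug, 14.1 in irradiated WT and 12.3 in non-irradiated WT.

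Entpd1 encodes CD39, which breaks down extracellular ATP (chr19:40612366-40741602, plus strand), and was apart in no class or pair. It was at 5.33 CPM in cKO-drug, 6.18 in irradiated WT and 5.69 in non-irradiated WT in Cd4 T cells. NK cells were its highest lymphocyte class, at 43.3 CPM in cKO-drug, 43.6 in irradiated WT and 38.6 in non-irradiated WT. Most Entpd1 UMIs lay outside the 6 classes, which held 24.7% of them in cKO-drug, 30.1% in irradiated WT and 5.22% in non-irradiated WT. Endothelial cells held 101 CPM in cKO-drug, 59.9 in irradiated WT and 71.5 in non-irradiated WT.

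Foxp3, the lineage factor of regulatory T cells (chrX:7573644-7595245, plus strand), was highest in irradiated WT. Cd4 T cells held 49.6 CPM [44.2 to 55.5] in cKO-drug, 106 CPM [97 to 115] in irradiated WT and 38.3 CPM [30.04 to 48.0] in non-irradiated WT. The irradiated WT interval lies above both others, which overlap each other. The ratio was 0.469 [0.406 to 0.541] for cKO-drug over irradiated WT, 2.77 [2.17 to 3.58] for irradiated WT over non-irradiated WT and 1.30 [1.00 to 1.70] for cKO-drug over non-irradiated WT. In a bulk level of a class, fewer Foxp3 cells and less Foxp3 RNA per cell cannot be told apart, so shares of cells are given as well. A Foxp3 UMI was seen in 17.9% [15.05 to 21.1] of Cd4 T cells in cKO-drug, 33.5% [29.5 to 37.8] in irradiated WT and 11.4% [7.70 to 16.0] in non-irradiated WT. After thinning the shares were 5.10% [3.54 to 7.09] in cKO-drug, 7.13% [5.07 to 9.69] in irradiated WT and 2.03% [0.663 to 4.68] in non-irradiated WT. The order stayed, but the intervals of both irradiated libraries then overlapped. Of B cells, 0.305% in cKO-drug and 0.372% in irradiated WT carried Foxp3, and in non-irradiated WT 0 of 1333 did. With 3 cells again as the limit, that allows up to 0.225%. The Cd4 T log2 ratio of cKO-drug over irradiated WT, -1.02, lies close to the rule's limit: it was -0.99 among female-type cells, -0.94 with median-of-ratios scaling and -0.30 after thinning, none of which meets the rule.

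Irradiated WT was also the highest library for Foxp3 in the other T cell classes. Cd8 T cells held 6.64 CPM in cKO-drug, 22.2 in irradiated WT and 4.32 in non-irradiated WT, Icos T cells 17.0 CPM in cKO-drug, 43.2 in irradiated WT and 15.7 in non-irradiated WT, and γδ T cells 3.1 CPM in cKO-drug, 13.8 in irradiated WT and 1.62 in non-irradiated WT, the last from 4 UMIs. The log2 ratios in these 3 classes were -1.22, -1.13 and -1.21 for cKO-drug over irradiated WT and 1.54, 1.22 and 1.505 for irradiated WT over non-irradiated WT, all of them apart. For cKO-drug over non-irradiated WT they were 0.32, 0.09 and 0.29, none of them apart. Cells that met the Cd4 gate as well were part of these classes. They made up 4.48% of the Cd8 T class in cKO-drug, 8.94% in irradiated WT and 2.27% in non-irradiated WT. In the same order of libraries they were 14.45, 21.56 and 16.20% of Icos T cells and 2.53, 2.91 and 1.30% of γδ T cells. Both γδ T calls were lost in cells of no other gate, after thinning, with every cell weighing the same and with 20 CPM added. Both Icos T calls were lost in cells of no other gate and with 20 CPM added. In irradiated WT 23 γδ T cells carried Foxp3, with medians of 17552 UMIs with Lag3 and 13377 without it, beside 6103 in cells with neither. Among Cd8 T cells that met no other gate Foxp3 was at 0.570 CPM in cKO-drug, 4.33 in irradiated WT and 1.03 in non-irradiated WT, and with gates 1 UMI stricter the Cd8 T log2 ratio of cKO-drug over irradiated WT turned round to 0.12. Xcl1 T cells held 4.04 CPM in cKO-drug, 5.40 in irradiated WT and 2.88 in non-irradiated WT, and NK cells had 2 Foxp3 UMIs in cKO-drug, 0 in irradiated WT and 0 in non-irradiated WT. The gene overlaps Ppp1r3f, Ccdc22 and Flicr, whose levels reached at most 4.59, 9.82 and 5.38 CPM in any class. Whether the authors' counting used strand is not stated, so the assignment of reads between these genes is uncertain.

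Ikzf2, the gene of Helios (chr1:69531214-69687245, minus strand), was apart in 5 classes when irradiated WT was set against non-irradiated WT, all but NK cells. The γδ T and Xcl1 T calls each held under 10 of 15 alternative settings, and both were lost when likely doublets were removed. Cd4 T cells held 238 CPM [226 to 250] in cKO-drug, 474 CPM [455 to 493] in irradiated WT and 95.1 CPM [81.9 to 110] in non-irradiated WT. The 3 intervals are separate, with cKO-drug between the WT libraries. The ratio of 0.501 [0.469 to 0.535] for cKO-drug over irradiated WT gave a log2 ratio of -0.98 with 5 CPM added, just short of the rule. Irradiated WT over non-irradiated WT gave a ratio of 4.98 [4.29 to 5.82], and cKO-drug over non-irradiated WT 2.50 [2.14 to 2.93]. Carriage was 35.9% of Cd4 T cells in cKO-drug, 55.9% in irradiated WT and 17.5% in non-irradiated WT, and after thinning 14.7% in cKO-drug, 28.7% in irradiated WT and 4.47% in non-irradiated WT. B cells carried it in 1.68% in cKO-drug, 0.931% in irradiated WT and 0.825% in non-irradiated WT and mesenchymal cells in 13.6% in cKO-drug, 11.7% in irradiated WT and 10.4% in non-irradiated WT before thinning.

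The same order of libraries held for Ikzf2 in the other T cell classes. Cd8 T cells held 74.2 CPM in cKO-drug, 189 in irradiated WT and 28.4 in non-irradiated WT, and the ratio of 0.393 [0.359 to 0.432] for cKO-drug over irradiated WT was apart. Icos T cells held 139 CPM in cKO-drug, 268 in irradiated WT and 74.3 in non-irradiated WT and γδ T cells 109 CPM in cKO-drug, 174 in irradiated WT and 76.0 in non-irradiated WT. Xcl1 T cells held 177 CPM in cKO-drug, 304 in irradiated WT and 148 in non-irradiated WT, with 50.1% of cells in cKO-drug, 65.0% in irradiated WT and 41.1% in non-irradiated WT carrying it. NK cells were the lowest class, at 28.6 CPM in cKO-drug, 43.6 in irradiated WT and 25.7 in non-irradiated WT. Ikzf2 overlaps the antisense gene Gm29114, which reached 0.797 CPM at most.

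Il2ra encodes CD25 (chr2:11642807-11693193, plus strand) and had its highest value in irradiated WT in each of the 6 classes. It was at 58.2 CPM [52.3 to 64.5] in cKO-drug, 145 CPM [135 to 156] in irradiated WT and 35.7 CPM [27.8 to 45.1] in non-irradiated WT in Cd4 T cells. The intervals are separate. The ratio was 0.400 [0.352 to 0.455] for cKO-drug over irradiated WT, 4.07 [3.18 to 5.29] for irradiated WT over non-irradiated WT and 1.63 [1.26 to 2.14] for cKO-drug over non-irradiated WT, the last not apart. Carriage was 21.2% of Cd4 T cells in cKO-drug, 39.1% in irradiated WT and 13.4% in non-irradiated WT, and 4.48% in cKO-drug, 10.0% in irradiated WT and 1.63% in non-irradiated WT after thinning. B cells carried it in 3.35% in cKO-drug, 1.68% in irradiated WT and 2.03% in non-irradiated WT before thinning.

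Cd8 T cells held 24.7 CPM of Il2ra in cKO-drug, 54.7 in irradiated WT and 17.5 in non-irradiated WT, apart in both pairs that hold irradiated WT. The call against cKO-drug held under 7 of 15 alternative settings, with log2 ratios between -1.24 and -0.07. The call against non-irradiated WT held under 11 of 15. Both were lost in cells without a Foxp3 UMI, in cells of no other gate, after thinning and with 20 CPM added. The highest class was γδ T, at 239 CPM in cKO-drug, 327 in irradiated WT and 209 in non-irradiated WT, with no call. Icos T cells followed at 121 CPM in cKO-drug, 197 in irradiated WT and 105 in non-irradiated WT. Xcl1 T cells held 48.6 CPM in cKO-drug, 55.9 in irradiated WT and 25.9 in non-irradiated WT and NK cells 12.1 CPM in cKO-drug, 17.5 in irradiated WT and 6.68 in non-irradiated WT, also without a call.

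Foxp3 and Lag3 were found together in 19 of 647 Cd4 T cells of cKO-drug, 2.94% [1.78 to 4.55]. Irradiated WT had both in 55 of 519 cells, 10.6% [8.08 to 13.6], and non-irradiated WT in 3 of 246, 1.22% [0.252 to 3.52]. The irradiated WT share is the high one and its interval overlaps neither other. The product of the single shares would give 8.61 cells in cKO-drug, 24.8 in irradiated WT and 0.455 in non-irradiated WT, so joint carriage was 2.21 times that number in cKO-drug, 2.22 in irradiated WT and 6.59 in non-irradiated WT, the last from 3 cells. Deeper cells are more likely to show both transcripts. The cells with both had medians of 9009 UMIs in cKO-drug, 10500 in irradiated WT and 11146 in non-irradiated WT, and the cells with neither 7409 UMIs in cKO-drug, 6745 in irradiated WT and 6636 in non-irradiated WT. After thinning, joint carriage was seen in 0 cells in cKO-drug, 1 in irradiated WT and 0 in non-irradiated WT, so this depth leaves no joint share to compare.

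Lag3 was carried by 16.4% [10.2 to 24.4] of Foxp3-carrying Cd4 T cells in cKO-drug, 31.6% [24.8 to 39.1] in irradiated WT and 10.7% [2.27 to 28.2] in non-irradiated WT. Without a Foxp3 UMI the shares were 5.46% [3.69 to 7.75] in cKO-drug, 5.51% [3.35 to 8.47] in irradiated WT and 0.459% [0.0116 to 2.53] in non-irradiated WT. Both irradiated libraries thus had near-equal Lag3 carriage among cells without Foxp3, while among cells with it the irradiated WT interval lay above that of cKO-drug. Of the Lag3-carrying Cd4 T cells, 39.6% in cKO-drug, 74.3% in irradiated WT and 75.0% in non-irradiated WT also carried Foxp3, the last being 3 of 4 cells. Icos T cells carried both in 1.06% in cKO-drug, 3.23% in irradiated WT and 0.348% in non-irradiated WT, and in the Cd8 T class 4 cells in cKO-drug, 8 in irradiated WT and 2 in non-irradiated WT did.

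**Figure D3:**
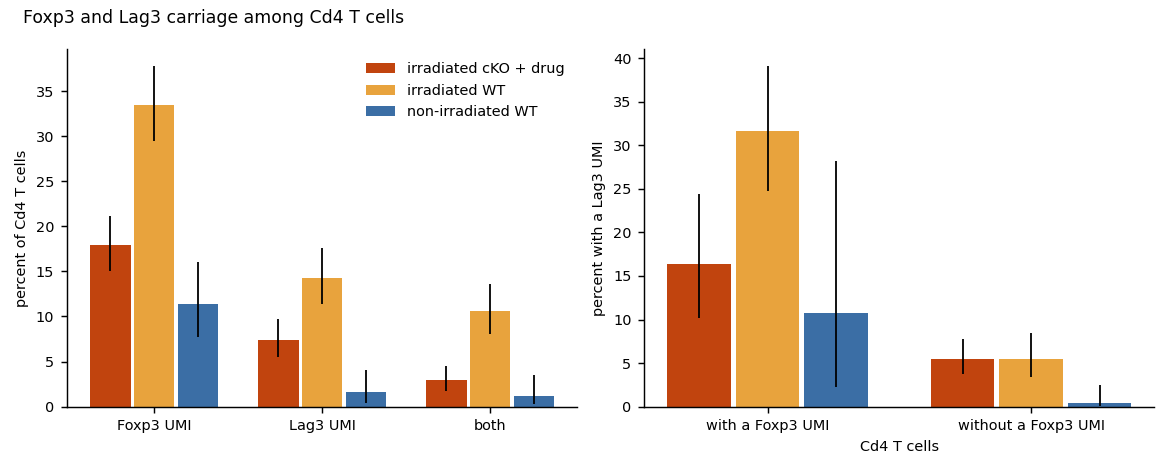
Left, percent of Cd4 T cells with a Foxp3 UMI, a Lag3 UMI and both, and right, percent with a Lag3 UMI among Cd4 T cells with and without a Foxp3 UMI, as bars per library with 95% binomial intervals. The irradiated WT bar is the highest for Foxp3 (33.5%), Lag3 (14.3%) and both (10.6%), and without a Foxp3 UMI the bars are near equal at 5.46% for cKO-drug and 5.51% for irradiated WT.

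The other 9 genes were then read separately in Cd4 T cells with a Foxp3 UMI (116 cells in cKO-drug, 174 in irradiated WT and 28 in non-irradiated WT) and without one (531 cells in cKO-drug, 345 in irradiated WT and 218 in non-irradiated WT). A missing Foxp3 UMI does not show that a cell lacks the transcript, and median depth was higher in the cells with it, at 9063 UMIs in cKO-drug, 8955 in irradiated WT and 7372 in non-irradiated WT, than in those without, at 7488 UMIs in cKO-drug, 6694 in irradiated WT and 6648 in non-irradiated WT. Among cells with Foxp3, Lag3 was at 22.2 CPM in cKO-drug, 55.4 in irradiated WT and 16.0 in non-irradiated WT and was the 1 gene lower in cKO-drug than in irradiated WT by the rule. Ikzf2 in these cells was near equal in both irradiated libraries, at 747 CPM in cKO-drug, 752 in irradiated WT and 515 in non-irradiated WT. Il2ra stood at 149 CPM in cKO-drug, 236 in irradiated WT and 104 in non-irradiated WT and Pdcd1 at 95.7 CPM in cKO-drug, 88.5 in irradiated WT and 23.96 in non-irradiated WT, the last from 6 UMIs. Ctla4 was lowest in irradiated WT here, at 1634 CPM in cKO-drug, 1049 in irradiated WT and 1606 in non-irradiated WT, without a call.

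Among Cd4 T cells without a Foxp3 UMI, Ikzf2 was at 88.7 CPM in cKO-drug, 240 in irradiated WT and 32.7 in non-irradiated WT and Il2ra at 31.5 CPM in cKO-drug, 68.6 in irradiated WT and 25.5 in non-irradiated WT. Both were apart for cKO-drug against irradiated WT and for irradiated WT against non-irradiated WT. Pdcd1 was at 40.5 CPM in cKO-drug, 52.8 in irradiated WT and 10.1 in non-irradiated WT, low in non-irradiated WT alone. Lag3 was at 15.03 CPM in cKO-drug, 12.1 in irradiated WT and 0.594 in non-irradiated WT, the last from 1 UMI. Against non-irradiated WT the rule called Pdcd1, Lag3, Ikzf2 and Cd160 higher in cKO-drug, and Pdcd1, Lag3, Ikzf2 and Il2ra higher in irradiated WT, in these cells. No share of all genes was counted in the cells split by Foxp3.

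**Figure D4:**
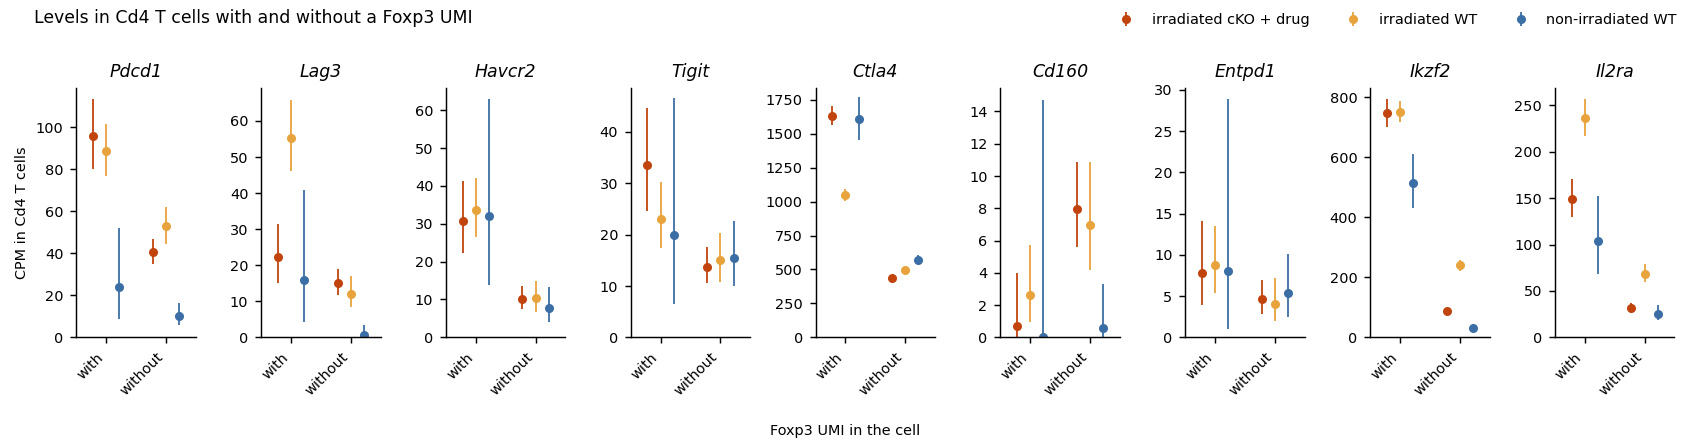
Level (CPM, linear axes from 0) of the 9 genes other than Foxp3 in Cd4 T cells with and without a Foxp3 UMI, 1 point per library with 95% Poisson intervals. In cells with Foxp3, Lag3 is highest in irradiated WT (55.4 CPM) and Ikzf2 is near equal in cKO-drug (747 CPM) and irradiated WT (752 CPM); in cells without Foxp3, Ikzf2 is at 88.7 CPM in cKO-drug and 240 CPM in irradiated WT.

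Male-type Cd4 T cells of the irradiated WT library (127 cells) were set beside its female-type cells (334 cells). Foxp3 was at 124 CPM in male-type and 109 CPM in female-type cells, Ikzf2 at 501 and 520 CPM, and Il2ra at 177 and 137 CPM in the same order. Pdcd1 was at 78.2 and 75.0 CPM, Lag3 at 25.8 and 38.8 CPM, and Ctla4 at 635 and 832 CPM. Both kinds of irradiated WT cell thus stood on the same side of the other libraries for Foxp3, Ikzf2 and Il2ra. Female-type Cd4 T cells held 52.6 CPM of Foxp3 in cKO-drug, 109 in irradiated WT and 41.2 in non-irradiated WT, 248 CPM of Ikzf2 in cKO-drug, 520 in irradiated WT and 102 in non-irradiated WT and 59.6 CPM of Il2ra in cKO-drug, 137 in irradiated WT and 35.1 in non-irradiated WT. With female-type cells alone the counts over the 6 classes were 9 values lower in cKO-drug than in irradiated WT, 21 higher in irradiated WT than in non-irradiated WT and 9 higher in cKO-drug than in non-irradiated WT. The share of all genes called among female-type cells was not counted, so these numbers have no background beside them. Foxp3 in Cd4 T cells then lay just outside the rule for cKO-drug against irradiated WT, and Ikzf2 inside it. Joint carriage of Foxp3 and Lag3 in female-type cells was 3.18% in cKO-drug, 12.3% in irradiated WT and 1.35% in non-irradiated WT, and 12 of the 127 male-type cells of irradiated WT (9.45%) carried both.

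**Figure D5:**
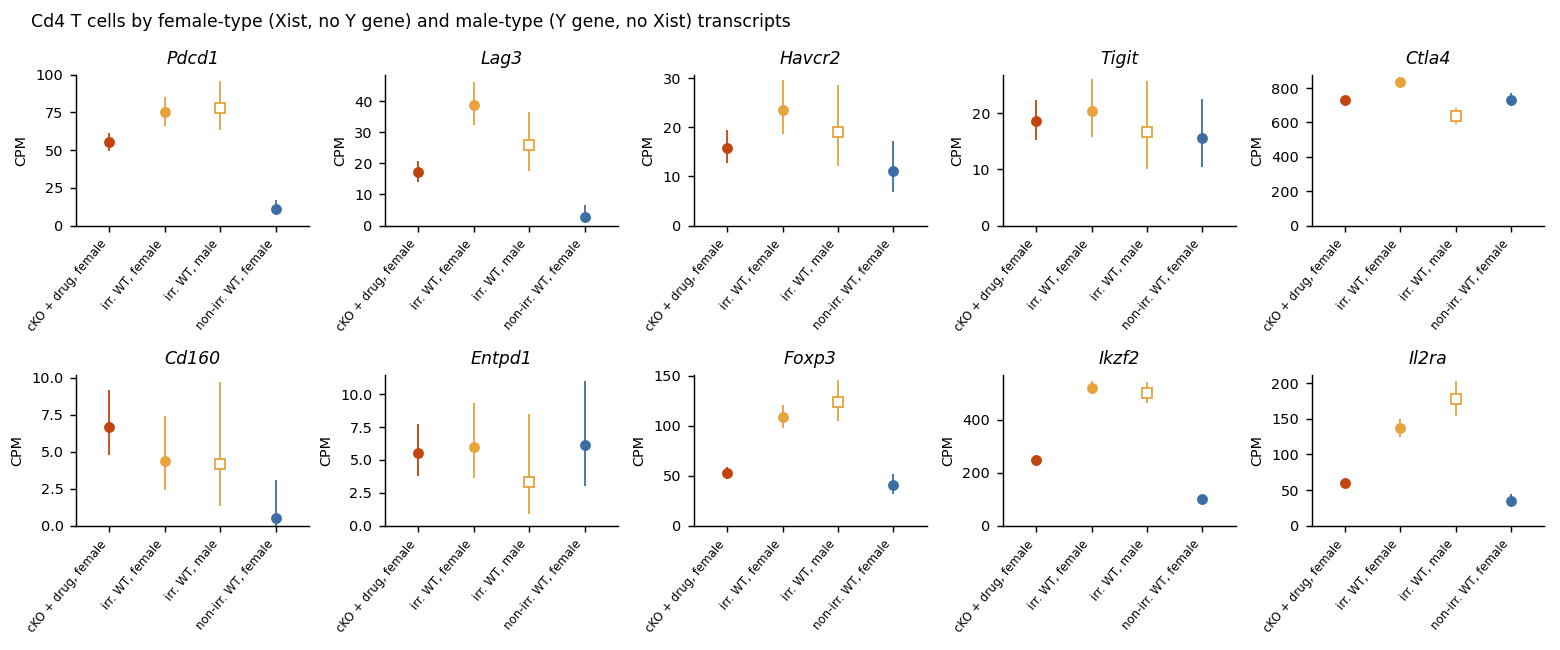
Level (CPM, linear axes from 0) of the 10 genes in female-type Cd4 T cells of each library and in male-type Cd4 T cells of the irradiated WT library, with 95% Poisson intervals. For Foxp3 the cKO-drug female-type cells lie at 52.6 CPM, the irradiated WT cells at 109 CPM (female type) and 124 CPM (male type), and the non-irradiated WT female-type cells at 41.2 CPM; Ikzf2 and Il2ra have the same order of libraries.

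Single Cd4 T cells often carried several of the 10 genes. At least 3 were found in 34.5% of cells in cKO-drug, 52.2% in irradiated WT and 18.3% in non-irradiated WT, and after thinning in 6.34% in cKO-drug, 9.06% in irradiated WT and 1.63% in non-irradiated WT. At least 3 of the 6 inhibitory receptors were found in 12.7% in cKO-drug, 18.5% in irradiated WT and 3.66% in non-irradiated WT. Irradiated WT was highest by these 3 measures. After thinning, at least 2 of the 6 receptors were found in 6.03% of cells in cKO-drug, 5.78% in irradiated WT and 2.03% in non-irradiated WT, with the irradiated libraries near equal. Foxp3 and Ikzf2 were seen together in 103 cells in cKO-drug, 161 in irradiated WT and 22 in non-irradiated WT, where the single shares would give 41.6 in cKO-drug, 97.2 in irradiated WT and 4.89 in non-irradiated WT. Foxp3 and Il2ra were seen together in 65 cells in cKO-drug, 130 in irradiated WT and 12 in non-irradiated WT, where they would give 24.6 in cKO-drug, 68.1 in irradiated WT and 3.76 in non-irradiated WT.

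Other genes of these pathways were counted from lists that do not hold the 10 genes, in Cd4 T cells first. The lists share members, among them Tnfrsf18 and Tnfrsf4, which stand in both the regulatory T and the costimulatory list. Their counts are therefore not separate results. The list of further regulatory T genes had 18 measured members. Of these 3 were lower in cKO-drug than in irradiated WT, where the rule called 0.635% of all genes lower and 1.04% higher: Itgae, the integrin of tissue-resident T cells (21.3 CPM in cKO-drug and 79.9 CPM in irradiated WT), Il1rl1, the interleukin 33 receptor (41.4 CPM in cKO-drug and 100.2 CPM in irradiated WT), and the growth factor Areg (55.6 CPM in cKO-drug and 119.6 CPM in irradiated WT). The list's median log2 ratio was -0.56, beside -0.07 over all genes. Il1rl1 is also 1 of the 3 markers of group 2 innate lymphoid cells given above, whose part was not tested. In irradiated WT against non-irradiated WT, 7 of the 18 were higher, where 2.06% of all genes were called higher and 3.65% lower. Among them were Itgae (79.9 CPM in irradiated WT and 7.76 CPM in non-irradiated WT), the chemokine receptor Ccr8 (39.5 CPM in irradiated WT and 11.4 CPM in non-irradiated WT), Areg (119.6 CPM in irradiated WT and 41.4 CPM in non-irradiated WT) and Tnfrsf18, which encodes GITR (352 CPM in irradiated WT and 135 CPM in non-irradiated WT), and the median was 0.85 beside 0.11. In cKO-drug against non-irradiated WT, Itgae (21.3 CPM in cKO-drug and 7.76 CPM in non-irradiated WT) was the 1 of the 18 that was higher, beside 0.606% of all genes higher and 2.86% lower.

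Of 10 costimulatory receptors, Tnfrsf9, which encodes 4-1BB, was the 1 gene lower in cKO-drug than in irradiated WT (237 CPM in cKO-drug and 530.5 CPM in irradiated WT), with a list median of -0.23. Tnfrsf9 (530.5 CPM in irradiated WT and 142 CPM in non-irradiated WT), Tnfrsf18 and Cd226, the activating partner of TIGIT (32.3 CPM in irradiated WT and 12.9 CPM in non-irradiated WT), were higher in irradiated WT than in non-irradiated WT, with a median of 0.77. Of 10 naive and central memory genes, Klf2, a factor of resting T cells, was higher in cKO-drug than in irradiated WT (533 CPM in cKO-drug and 251 CPM in irradiated WT). Klf2 (251 CPM in irradiated WT and 997 CPM in non-irradiated WT), the egress receptor S1pr1 (196 CPM in irradiated WT and 465 CPM in non-irradiated WT) and Dapl1 (4.58 CPM in irradiated WT and 15.5 CPM in non-irradiated WT) were lower in irradiated WT than in non-irradiated WT. Of 11 effector genes, the granzyme Gzmk (15.7 CPM in cKO-drug and 1.20 CPM in irradiated WT) and the chemokine Ccl5 (1260 CPM in cKO-drug and 609 CPM in irradiated WT) were higher and the cytokine Il13 (1.78 CPM in cKO-drug and 13.8 CPM in irradiated WT) lower in cKO-drug than in irradiated WT, with a median of 0.56. Il13 was the 1 effector gene of 10 that was apart between the WT libraries (13.8 CPM in irradiated WT and 1.03 CPM in non-irradiated WT). Ccl5 (1260 CPM in cKO-drug and 486.0 CPM in non-irradiated WT) and Gzmk, with 97 UMIs in cKO-drug and 0 in non-irradiated WT, were higher in cKO-drug than in non-irradiated WT, where no costimulatory receptor and no naive gene was apart.

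The 12 activation and exhaustion factors held 0 calls in Cd4 T cells between the irradiated libraries and 0 between the WT libraries. They held 1 for cKO-drug over non-irradiated WT, the T-box factor Eomes (22.6 CPM in cKO-drug and 7.24 CPM in non-irradiated WT). The 10 genes of interleukin 2 receptor signalling held 0 in each pair, with median log2 ratios of -0.12 for cKO-drug over irradiated WT, 0.03 for irradiated WT over non-irradiated WT and -0.16 for cKO-drug over non-irradiated WT. Of the further inhibitory receptors, Klrg1 was the 1 of 8 higher in irradiated WT than in non-irradiated WT (61.6 CPM in irradiated WT and 17.6 CPM in non-irradiated WT) and the 1 of 9 higher in cKO-drug than in non-irradiated WT (44.3 CPM in cKO-drug and 17.6 CPM in non-irradiated WT). Of 8 ligands of the inhibitory receptors, the CTLA-4 ligand Cd80 was higher in irradiated WT (11.8 CPM in irradiated WT and 1.03 CPM in non-irradiated WT), the second value from 2 UMIs. Neither of these lists held a call between the irradiated libraries.

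In Cd8 T cells, Tnfrsf9, Klrg1 and Klf2 were apart between the WT libraries as in Cd4 T cells, with further members of the lists. Effector genes were higher in irradiated WT than in non-irradiated WT in 5 of 10, with Nkg7, a cytotoxic granule gene (291 CPM in irradiated WT and 83.9 CPM in non-irradiated WT), and the granzyme Gzma (289.5 CPM in irradiated WT and 114 CPM in non-irradiated WT) among them. Il17a was lower (41.0 CPM in irradiated WT and 107.5 CPM in non-irradiated WT). The list's median was 1.02 beside 0.14 over all genes, and the rule called 2.38% of genes higher and 6.54% lower. Of the 12 activation and exhaustion factors, Eomes (111 CPM in irradiated WT and 28.6 CPM in non-irradiated WT), Tbx21, which encodes T-bet (17.5 CPM in irradiated WT and 3.86 CPM in non-irradiated WT), and Nr4a2 (247 CPM in irradiated WT and 118 CPM in non-irradiated WT) were higher and Batf (60 CPM in irradiated WT and 127 CPM in non-irradiated WT) lower. The costimulatory receptors Tnfrsf9 (184 CPM in irradiated WT and 37.7 CPM in non-irradiated WT) and Tnfrsf4, which encodes OX40 (123 CPM in irradiated WT and 40 CPM in non-irradiated WT), were the 2 of 10 higher. Of the further inhibitory receptors, Klrc1, which encodes NKG2A (69.7 CPM in irradiated WT and 17.5 CPM in non-irradiated WT), and Klrg1 (20.5 CPM in irradiated WT and 4.54 CPM in non-irradiated WT) were the 2 of 9 higher. Of 17 further regulatory T genes 3 were higher, among them the phosphatase Dusp4 (76.5 CPM in irradiated WT and 25.5 CPM in non-irradiated WT), and 2 lower, among them Nrp1 (16.5 CPM in irradiated WT and 45.2 CPM in non-irradiated WT).

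Between the irradiated libraries, in the same class, Tnfrsf9 (71.0 CPM in cKO-drug and 184 CPM in irradiated WT) and Itgae (11.8 CPM in cKO-drug and 31.9 CPM in irradiated WT) were lower in cKO-drug. Klf2 (1319 CPM in cKO-drug and 630.5 CPM in irradiated WT) and Il17a (117 CPM in cKO-drug and 41.0 CPM in irradiated WT) were higher. The rule called 0.275% of all genes lower and 0.653% higher there. Against non-irradiated WT, 4 of 10 effector genes were higher in cKO-drug, with Ccl5 (3276 CPM in cKO-drug and 1207 CPM in non-irradiated WT) and Gzmk (15.3 CPM in cKO-drug and 2.04 CPM in non-irradiated WT) among them, beside 0.452% of all genes called higher and 4.20% lower. Eomes (78.2 CPM in cKO-drug and 28.6 CPM in non-irradiated WT) and Tbx21 (13.5 CPM in cKO-drug and 3.86 CPM in non-irradiated WT) were higher too, and Nrp1 (15.4 CPM in cKO-drug and 45.2 CPM in non-irradiated WT) and Ikzf4, which encodes Eos (11.5 CPM in cKO-drug and 28.4 CPM in non-irradiated WT), were lower. Of the further inhibitory receptors, Klrc1 was the 1 of 11 higher (66.3 CPM in cKO-drug and 17.5 CPM in non-irradiated WT).

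Likeness to other genes was measured as Pearson's r of log2(CPM + 5) over the 18 profiles of 6 classes in 3 libraries. These profiles share libraries and, through the overlapping gates, cells, so r is a description among 11025 genes. Nearest to Foxp3 were Il1rl1 (r = 0.967) and Tnfrsf13b (0.962). Nearest to Ikzf2 were the replication licensing gene Mcm3 (0.944) and Lockd (0.919), and nearest to Il2ra were Rbpj, the DNA-binding factor of the Notch pathway (0.976), and Slc22a15 (0.967). Among the receptors, Ctla4 lay nearest to Slamf1 (0.972) and Grap2 (0.969), Pdcd1 to Denr (0.961) and Galnt12 (0.947), and Lag3 to the nuclear transport GTPase Ran (0.938) and Bcat1 (0.936). Tigit lay nearest to Sh2d1a, the adaptor SAP (0.895), and Inpp1 (0.868), and Cd160 to Cables1 (0.944) and Btbd11 (0.881). Havcr2 lay nearest to Hsbp1l1 (0.956) and Uhrf2 (0.955), and Entpd1 to Ggct (0.982) and Scd2 (0.969).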

How the data were processed

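UMI counts per gene and barcode, not normalized, are the authors' deposited matrices of 3 libraries. Software version 3.1.0 stands in the file headers without a name, and mm10 is the build per the submitters' processing notes. Every deposited barcode has at least 500 UMIs. From these counts, UMIs were summed over the cells of a class and library and given as CPM of that class. Doublets were kept. As an alternative, the top 0.8% per 1000 barcodes by Scrublet score (scanpy 1.11.5) were removed, since the automatic threshold would have marked only 2, 7 and 446 cells. Thinning drew 1000 UMIs per cell without replacement (seed 1). A call needed a 2-fold ratio with 5 CPM added and 30 UMIs in the higher library, and lists used genes with at least 20 UMIs over both libraries. The calling was tested on simulated data. All 10 genes were described in all 6 classes. Other genes named are the 2 to 4 called members of a list with the largest log2 ratio and the 2 genes most like each of the 10, with at least 200 UMIs, leaving out mitochondrial, ribosomal protein, receptor-segment, Y-linked and gating genes, Xist and Tsix. The genes, lists and rules were chosen with earlier results of these data known. Gene positions are from GENCODE vM21. The tools were matplotlib 3.10.9, pandas 2.3.3, scipy 1.17.1 and numpy 2.4.6 under Python 3.11.15.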

Additional observations from a re-analysis of the deposited data

How the results depend on the processing

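No paired analysis was possible because each group has 1 library and no replicate number, and for the same reason no replicate could be left out. The cells in no other of the 6 gates and the cells without a Foxp3 UMI were chosen as alternatives after seeing the data. Shares of all genes called were counted for the main setting only. The 7 values lower in cKO-drug than in irradiated WT numbered 3 with gates 1 UMI stricter, 3 after thinning, 4 with every cell weighing the same and 2 with 20 CPM added, and 1 value was higher with cells in no other gate. The 19 higher in irradiated WT than in non-irradiated WT numbered 10 in cells of no other gate (9 of the 19 and 1 new, Ctla4 in Cd4 T cells), 5 after thinning, which leaves fewer UMIs, and 10 with 20 CPM added, and lay between 17 and 26 under the other alternatives. The 10 higher in cKO-drug than in non-irradiated WT numbered 6, 6 and 2 under the same 3, of which 4, 3 and 2 were among the 10. The share of Cd4 T cells with Foxp3 was 10.4% in cKO-drug and 5.56% in non-irradiated WT among cells in no other gate, and 5.10, 7.13 and 2.03% after thinning. The joint share with Lag3 was 4.64% in cKO-drug and 3.70% in non-irradiated WT with stricter gates, 1.60% and 0% in cells of no other gate, and 0, 0.193 and 0% after thinning. The log2 ratio of Foxp3 in Cd8 T cells, cKO-drug over irradiated WT, reversed to 0.12 with stricter gates. Beyond thinning and the larger added CPM, the causes were not tested. Under every alternative run on them, these calls held: Foxp3 and Il2ra in Cd4 T cells and Ikzf2 in Cd4 T, Cd8 T and Icos T cells for irradiated WT over non-irradiated WT, Ikzf2 in Cd8 T cells for cKO-drug over irradiated WT, and Pdcd1 and Ikzf2 in Cd4 T cells for cKO-drug over non-irradiated WT. Foxp3 in Cd4 T cells was called lower in cKO-drug than in irradiated WT under 7 of 14 alternatives, with log2 ratios between -1.77 and -0.30, and Il2ra under 14 of 15. Median-of-ratios scaling would shift log2 ratios by at most 0.18, the median over all genes in Xcl1 T cells for irradiated WT over non-irradiated WT, and turned no call round. Depth limits the joint carriage and the low values of non-irradiated WT. Among these, Lag3 in Cd4 T, Cd8 T and Xcl1 T cells, Cd160 in Cd4 T cells and Foxp3 in γδ T cells rest on 1 to 5 UMIs.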
